A study of Mus musculus with 6 samples.

Results

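The matrix metalloproteinases (MMPs), the ADAMTS enzymes, the ADAMTS-like proteins (ADAMTSL) and the tissue inhibitors of metalloproteinases (TIMPs) were examined in embryonic mouse liver. Members were the genes whose symbol in the deposited annotation is Mmp, Adamts or Adamtsl with a number, or Timp1 to Timp4, and whose probe set named a single gene. This gave 44 of the 20678 genes measured: 19 MMP, 16 ADAMTS, 5 ADAMTSL and 4 TIMP genes, read by 83 probe sets. RNA came from livers of wild-type C57Bl6 embryos at stage E12.5 and went onto 6 Affymetrix arrays of type Mouse Genome 430 2.0, so that each group has a single array. They comprise 4 fractions of cells sorted for the adhesion molecule ALCAM, namely ALCAM+ PDPN+, ALCAM+ PDPN-, ALCAM+ ITGA8+ and ALCAM+ ITGA8- cells, then all ALCAM+ cells and liver cells. PDPN is podoplanin, a surface glycoprotein of mesothelium, and ITGA8 is the integrin alpha 8 chain, which the series uses to isolate hepatic stellate cells. All 6 groups share strain, genotype and age, and the number of embryos behind an array is not given in the sources used here.

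MMPs are zinc-dependent proteases that are made as inactive precursors and cleave collagens, laminins, growth factor carriers and cell surface proteins. Some are secreted and others, the membrane-type enzymes, stay anchored to the cell. ADAMTS enzymes are secreted proteases with thrombospondin repeats that process procollagens and cleave proteoglycans such as versican, while ADAMTSL proteins share the repeats and lack the protease domain. TIMPs bind the active site of MMPs and block it. In the adult liver, stellate cells are a known source of MMP2, TIMP1 and TIMP2.

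With 1 array per group there is no spread between samples, so no test was made and every difference below is a difference between 2 arrays. Differences are of log2(intensity + 16) and are called at 2-fold, and folds of genes with low intensity are understated and depend on the 16. A gene was compared where at least 1 of the 2 arrays lay above an intensity of 109.0, here called the floor, which is the median over every probe set and array. The 4 fraction arrays share 1 scale; ALCAM+ and liver are on another, so levels are not set across the 2 sets. Intensities of different genes depend on their probes and are not compared. Alcam, Pdpn and Itga8 followed the sorts: Alcam was at 13425 in ALCAM+ cells against 3207 in liver, Pdpn at 7746 in PDPN+ against 117 in PDPN- cells, and Itga8 at 4354 in ITGA8+ against 871 in ITGA8- cells. Pdpn was also at 4658 in ITGA8+ cells, and Itga8 at 2215 in PDPN- cells. The PDPN- array had the lowest median intensity of the fractions, at 123, against 173 to 200 in the other 3.

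Of the 44 genes, 34 exceeded the floor in at least 1 array and 10 did not in any; of all genes, 29.6% were below the floor in all 6 arrays. The 10 were Mmp1a, Mmp1b, Mmp3, Mmp7, Mmp8, Mmp10, Mmp12, Mmp13, Adamts8 and Timp4. The MMPs among them are the collagenases, the stromelysins Mmp3 and Mmp10, matrilysin and macrophage elastase, and they are neighbours: 9 MMP genes lie on chromosome 9 within chr9:7272514-7699585 (GRCm38.p6, RefSeq gene table), in the order Mmp13, Mmp12, Mmp1b, Mmp3, Mmp1a, Mmp10, Mmp8, Mmp20 and Mmp7. Of these 9, 8 were below the floor in all arrays, Mmp3 narrowly so, at 108 in liver. Mmp20, the tooth enamel protease enamelysin, was at 146 in PDPN+ and 28 in PDPN- cells, and at 76 in ITGA8+ and 33 in ITGA8- cells, above the floor in 1 array and 3.68-fold higher in PDPN+ than in PDPN- cells. The highest value of the 9 genes ranged from 12 to 146. The 10 MMP genes elsewhere in the genome all exceeded the floor in at least 1 array, with highest values of 259 to 11256. These highest values come from different probes and from arrays on both scales, so they are set beside the floor only.

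The RefSeq promoter windows of these genes differ in letters as well. Windows of 250 bases that end at the base before the gene's start were found for 29 of the 44 genes, 9 of them below the floor in all arrays and 20 above it. No window was found for the rest, among them Mmp2, Mmp9 and Mmp19, which were above the floor. The AP-1 motif TGACTCA, whose reverse complement is TGAGTCA, was in 7 of the 9 (Mmp1a, Mmp1b, Mmp3, Mmp7, Mmp10, Mmp12 and Mmp13) and in 0 of the 20, against 4.46% of the 32851 windows in the table. The GC box GGGCGG was in 0 of the 9 and 17 of the 20, against 32.7% of all windows. The TATA box TATAAA was in 6 of the 9 and 3 of the 20, against 12.4%, and the TEAD motif GGAATG in 0 and 1, against 12.6%. A gene was counted once where any of its windows held the motif, and 3 genes, Mmp7, Mmp12 and Mmp23, have 2 windows. Counted by window, AP-1 was in 7 of 11 and 0 of 21, the GC box in 0 of 11 and 17 of 21, and the TATA box in 6 of 11 and 3 of 21. All motifs were searched on both strands, and in the 6 windows printed no match overlaps another. A match is a description of the letters, and the genes of the cluster arose by duplication, so they are not independent cases. To show the contrast, 6 windows, chosen after the matches were seen, are printed 5′ to 3′ on the gene's strand with motif matches in capitals: Mmp13, Mmp3 and Mmp10 from the cluster, below the floor, and Timp2, Timp3 and Adamts2, whose values are given further on. They are chr9:7272264-7272513 (plus strand), chr9:7445572-7445821 (plus), chr9:7502092-7502341 (plus), chr11:118355412-118355661 (minus), chr10:86300162-86300411 (plus) and chr11:50601835-50602084 (plus), all in GRCm38.p6. Their GC content is 40.4%, 37.6%, 37.2%, 68%, 65.6% and 78% in the same order, against a median of 52.4% over all windows.
Mmp13: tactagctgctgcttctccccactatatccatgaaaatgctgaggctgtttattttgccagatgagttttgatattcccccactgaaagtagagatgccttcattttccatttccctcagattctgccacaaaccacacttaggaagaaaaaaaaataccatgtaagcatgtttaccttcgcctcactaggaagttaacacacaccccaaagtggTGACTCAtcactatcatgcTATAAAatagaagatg
Mmp3: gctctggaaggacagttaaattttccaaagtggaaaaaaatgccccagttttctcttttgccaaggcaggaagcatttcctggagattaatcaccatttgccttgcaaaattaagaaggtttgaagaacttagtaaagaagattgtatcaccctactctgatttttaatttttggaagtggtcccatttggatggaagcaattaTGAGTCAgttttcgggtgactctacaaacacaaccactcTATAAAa
Mmp10: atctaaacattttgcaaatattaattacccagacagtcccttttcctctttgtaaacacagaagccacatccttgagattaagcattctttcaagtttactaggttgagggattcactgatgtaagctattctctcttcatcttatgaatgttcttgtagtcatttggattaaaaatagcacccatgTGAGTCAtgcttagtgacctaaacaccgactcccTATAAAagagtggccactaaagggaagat
Timp2: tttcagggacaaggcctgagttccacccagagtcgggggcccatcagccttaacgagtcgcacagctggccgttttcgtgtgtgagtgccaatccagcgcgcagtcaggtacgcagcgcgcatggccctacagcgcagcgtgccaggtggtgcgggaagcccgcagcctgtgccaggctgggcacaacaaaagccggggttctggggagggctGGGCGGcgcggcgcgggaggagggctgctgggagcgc
Timp3: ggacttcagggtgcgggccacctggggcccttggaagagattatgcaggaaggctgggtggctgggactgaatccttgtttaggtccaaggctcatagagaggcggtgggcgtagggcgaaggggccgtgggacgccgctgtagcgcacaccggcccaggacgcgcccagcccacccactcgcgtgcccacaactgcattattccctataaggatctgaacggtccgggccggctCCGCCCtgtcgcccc
Adamts2: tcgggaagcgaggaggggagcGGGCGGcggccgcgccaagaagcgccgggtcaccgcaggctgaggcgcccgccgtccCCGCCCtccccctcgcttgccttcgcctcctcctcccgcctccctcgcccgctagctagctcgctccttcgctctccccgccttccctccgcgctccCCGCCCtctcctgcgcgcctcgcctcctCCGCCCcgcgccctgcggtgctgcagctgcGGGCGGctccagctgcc
In the first 3 windows the AP-1 match precedes a TATA box close to the start, and in the last 3 neither is found while GC boxes are, of which Adamts2 has 5.

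**Figure D1:**
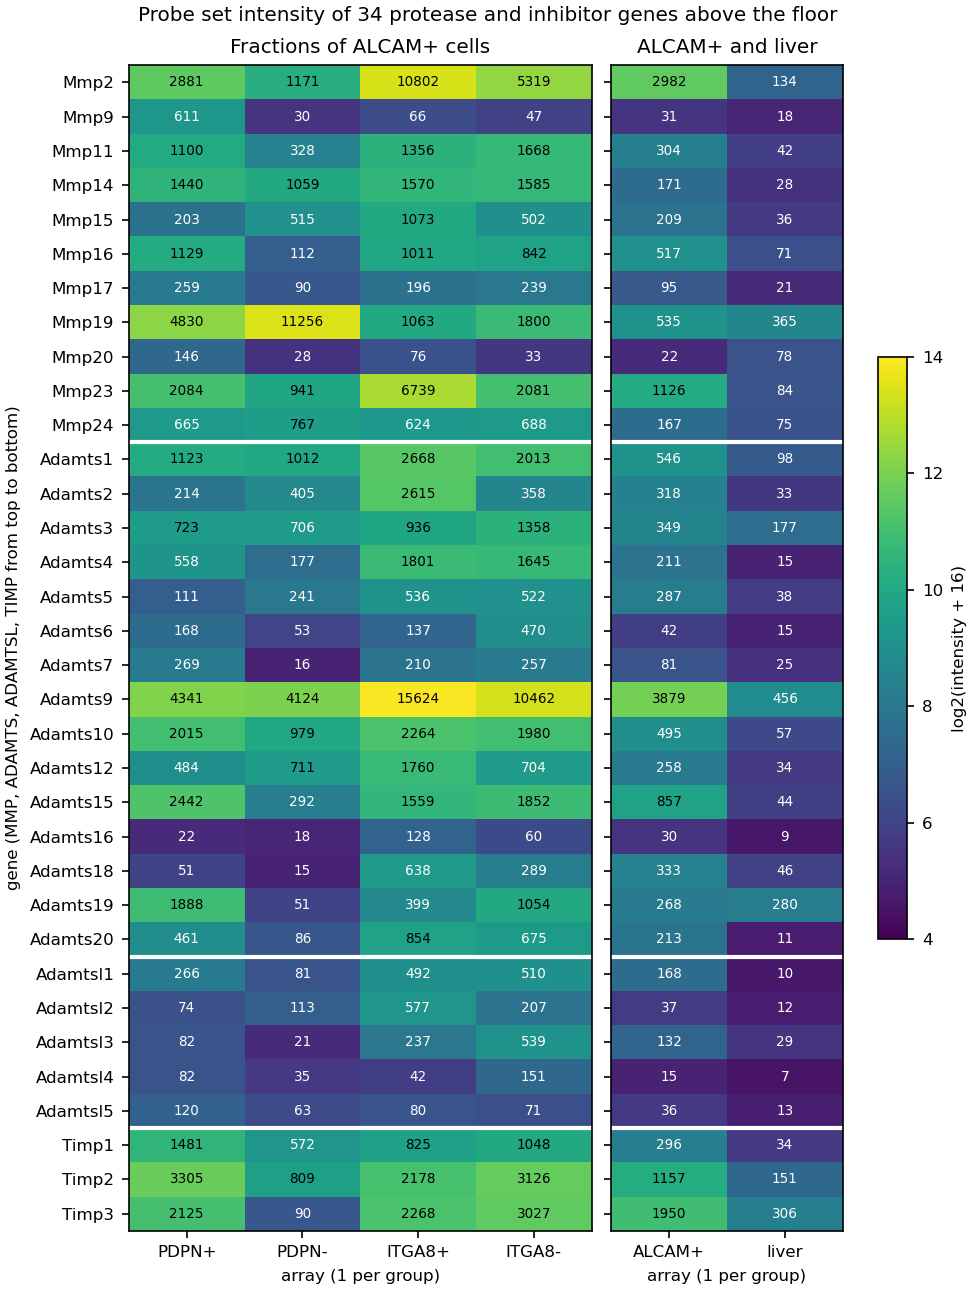
Intensity of the 34 genes above the floor in at least 1 array, printed in each cell and coloured by log2(intensity + 16), with the 4 fractions on the left and ALCAM+ and liver, which are on another scale, on the right. The PDPN- column is dark for Timp3 at 90 and Adamts19 at 51, and the ITGA8+ column stands out for Adamts2 at 2615 and Mmp23 at 6739.

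The first split asked how these genes divide with podoplanin. Of 30 genes above the floor, 18 were 2-fold higher in PDPN+ cells and 3 were lower, against 19.9% and 7.93% of all genes. The 18 comprised 7 MMP, 7 ADAMTS, 1 ADAMTSL and 3 TIMP genes. The largest differences were of Adamts19, Timp3 and Mmp9, and the genes higher in PDPN- cells were Mmp19, Mmp15 and Adamts5. The median difference was 1.32 on the log2 scale, against 0.04 over all genes. A gene above the floor only through its higher array had to differ, though not by 2-fold. Adamtsl5, at 120 in PDPN+ and 63 in PDPN- cells, stayed within 2-fold. Of the 18, 9 were below the floor in PDPN- cells, or 50%, against 50.7% of all genes higher in PDPN+ cells, and 0 of the 3 lower ones were below it in PDPN+ cells, against 26.1%. Adamts5, Adamts6, Adamts10, Adamtsl1, Mmp15, Mmp17 and Mmp23 did not pass 2-fold under at least 1 alternative.

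The PDPN- array stood apart from the other fractions. It was the lowest of the 4 fractions for 27 of the 34 genes, against 40.3% of all genes, and 2-fold below each of the other 3 for 17 of them, against 13.5%. Genes low in PDPN- cells could enter the 34 through the other 3 arrays, and the shares of all genes have the same filter. Of the 17, Adamts4, Adamts10, Adamts15, Mmp2, Mmp11, Mmp16, Mmp23 and Timp2 were above the floor in PDPN- cells. The rest of the 17 were below it there. With the ITGA8+ array in place of PDPN-, an alternative that was chosen after seeing the data and crosses the 2 sorts, 3 of 33 genes were 2-fold higher in PDPN+ cells and 13 lower, against 14.2% and 16.3% of all genes. The PDPN- array also differed in markers of other cells, none of which was at 0 in any array. The 10 macrophage markers summed to 37665 in PDPN+ and 682 in PDPN- cells, with 10 and 2 above the floor, and the 10 megakaryocyte markers to 32464 and 329, with 10 and 0. The 10 neutrophil and eosinophil markers summed to 28797 and 810, with 9 and 1 above the floor, the 10 mesothelial markers to 56813 and 1462, with 10 and 4, and the 10 endothelial markers to 5538 and 1615, with 7 and 2. Stellate markers summed to 20928 and 26533, hepatoblast markers to 159664 and 194917, and erythroid markers to 19839 and 14689, each with 8 to 10 of 10 above the floor. The part of these cells in the differences was not tested, and in sorted RNA fewer cells of a type and less RNA per cell cannot be told apart.

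The second split asked the same of the integrin. Of 31 genes above the floor, 7 were 2-fold higher in ITGA8+ cells and 4 were lower, against 5.38% and 6% of all genes. Higher were Adamts2, Mmp23, Adamtsl2, Adamts12, Adamts18, Mmp15 and Mmp2, and lower were Adamts6, Adamtsl4, Adamts19 and Adamtsl3. The median was -0.01, against 0.00 over all genes, and 20 genes stayed within 2-fold, among them the 3 TIMPs above the floor. All 7 higher genes were above the floor in both arrays, and of the 4 lower ones Adamtsl4 was not. Adamts12, Adamts18, Adamtsl3, Mmp15 and Mmp2 did not pass 2-fold under at least 1 alternative. Mesothelial markers summed to 18474 in ITGA8+ and 44019 in ITGA8- cells, with 9 and 10 of 10 above the floor, stellate markers to 38109 and 19347, with 10 and 9, and megakaryocyte markers to 38717 and 16533, with 10 and 9. Macrophage markers summed to 4190 and 2269, with 7 and 6 above the floor, neutrophil and eosinophil markers to 2874 and 1797, with 1 in each array, and endothelial markers to 8111 and 8192, with 8 and 10. Hepatoblast markers summed to 148008 and 122823, and erythroid markers to 73080 and 59599, with 10 above the floor in each array. Their part in the differences was not tested.

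The 2 splits share no array, and 27 genes were above the floor in both. Adamts6 and Adamts19 were 2-fold higher in both PDPN+ and ITGA8- cells, against 2.5% of all genes, and Mmp15 in both PDPN- and ITGA8+ cells, against 0.789%. Mmp2 and Mmp23 were higher in both PDPN+ and ITGA8+ cells, against 1.1%, and 0 genes in both PDPN- and ITGA8-, against 0.242%. Adamts1, Adamts3, Adamts9, Mmp14 and Mmp24 were within 2-fold in both splits, or 5 of 27, against 68.4% of all genes. Other probe sets passed 2-fold for Adamts3 and Adamts9 in the PDPN split and for Mmp14 in the ITGA8 split, as given below.

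Both arrays of the ITGA8 sort were above both arrays of the PDPN sort for 15 of the 34 genes above the floor, against 32.2% of all genes, and the reverse held for 1, Mmp19, against 20%. At 2-fold the ITGA8-sort arrays were above for 6 of the 34, Adamts4, Adamts5, Adamts9, Adamts16, Adamts18 and Adamtsl3, against 5.25% of all genes. All 6 are of the ADAMTS and ADAMTS-like families, which hold 20 of the 34 genes, and all but Adamts16 and Adamtsl3 were also 2-fold higher in ALCAM+ cells than in liver. Adamts16, Adamts18 and Adamtsl3 were below the floor in both PDPN-sort arrays. They entered the 34 only through the ITGA8 sort, so the filter favoured that direction. The shares of all genes were taken under the same filter. ITGA8+ was the highest of the 4 fractions for 14 of the 34, against 33.6% of all genes. These counts were made after seeing the data, and the sorts, of 2 arrays each, have no replicate.

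**Figure D2:**
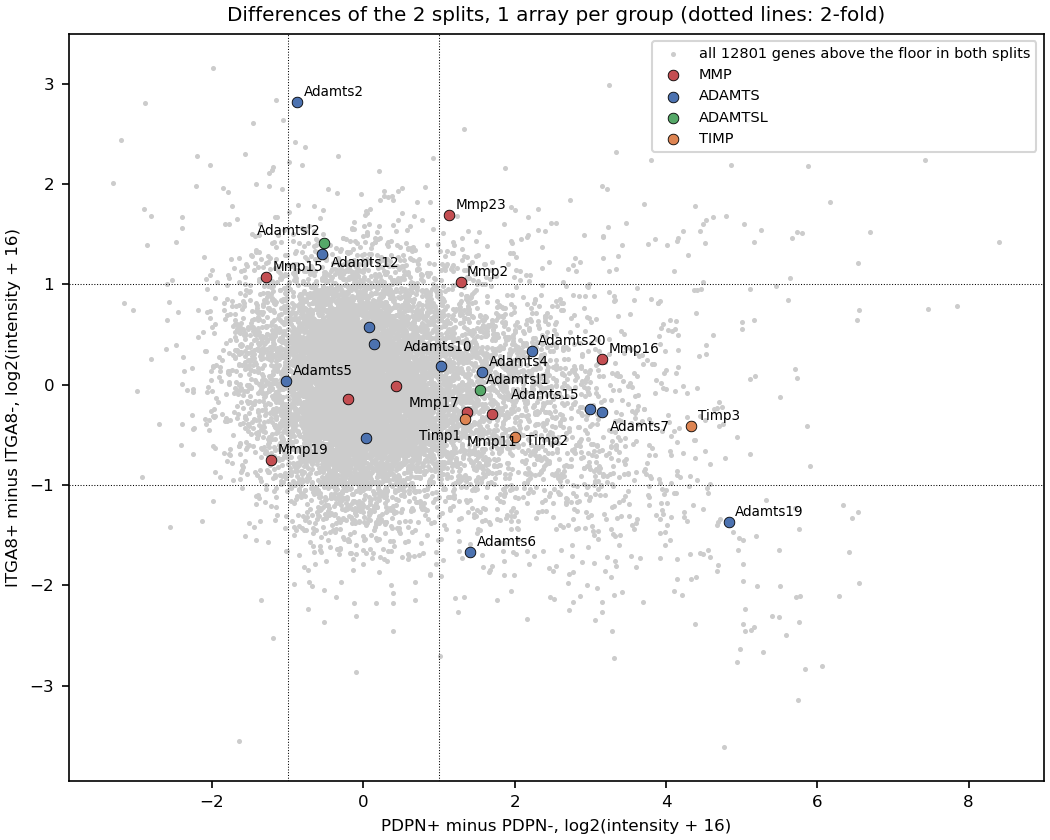
Difference of PDPN+ minus PDPN- (horizontal) against ITGA8+ minus ITGA8- (vertical), in log2(intensity + 16), for 12801 genes in grey and the 27 protease and inhibitor genes above the floor in both splits in colour; dotted lines mark 2-fold. Timp3 lies far to the right at 4.34 and near the horizontal axis at -0.41, Adamts2 at the top at 2.81, and Adamts19 at the lower right at 4.83 and -1.37.

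The third comparison set sorted ALCAM+ cells beside liver cells. Relative to the median of all genes, which was 0.90 on the log2 scale, 20 of the 25 genes that passed the floor had values over 2-fold higher in ALCAM+ cells, and 0 had lower ones, against 15.4% and 11.2% of all genes. As deposited, without that shift, 22 were higher and 0 lower, against 45.5% and 2.55%. The median was 1.71 relative to the shift. Of the 20 genes, 16 were below the floor in liver, or 80%, against 59.2% of all genes higher in ALCAM+ cells. The 4 above it in both arrays were Adamts9, Mmp2, Timp2 and Timp3. The count of 0 higher in liver depended on the floor. Mmp3, named after its values were seen, was at 25 in ALCAM+ cells and 108 in liver, just under the floor, and Mmp20 at 22 in ALCAM+ cells and 78 in liver. With the floor at 52, the median of these 2 arrays, both were 2-fold higher in liver. Under every alternative of pseudocount, probe set, normalisation and shift 11 of the 20 passed 2-fold, and the other 9, Adamts5, Adamts10, Adamts12, Adamts18, Adamtsl1, Mmp14, Mmp15, Mmp16 and Timp2, did not under at least 1. Only 7 of the 44 genes were above the floor in liver, or 15.9%, against 40.5% of all genes, and 25 were in ALCAM+ cells, or 56.8%, against 51.8%. In intensities as deposited, erythroid markers summed to 26495 in ALCAM+ cells and 52523 in liver, with 9 and 10 of 10 above the floor, mesothelial markers to 13362 and 528, with 9 and 1, and stellate markers to 5245 and 1019, with 7 and 2. Macrophage markers summed to 9958 and 4032, with 10 and 9 above the floor, neutrophil and eosinophil markers to 3119 and 7522, with 2 and 8, and megakaryocyte markers to 27962 and 7559, with 10 and 9. Endothelial markers summed to 3932 and 1831, with 7 and 6 above the floor, and hepatoblast markers to 73663 and 44241, with 9 in each. Relative to the shift, median log2 differences of the markers above the floor were 3.19 for mesothelial, 1.42 for megakaryocyte, 1.09 for stellate, 0.07 for hepatoblast, 0.05 for macrophage and 0.05 for endothelial markers, -2.72 for erythroid markers and -3.86 for neutrophil and eosinophil markers. The part of these cells in the differences was not tested.

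Among the MMPs, Mmp23 was at 1126 in ALCAM+ cells and 84 in liver, 6.11-fold higher relative to the shift. Mmp16 was at 517 in ALCAM+ cells and 71 in liver, 3.28-fold higher, while its other probe set above the floor was at 123 in ALCAM+ cells and 46 in liver, 1.20-fold higher. The mean of its probe sets gave a difference of 0.48 on the log2 scale. Mmp11 was at 304 in ALCAM+ cells and 42 in liver, 2.95-fold higher. All 3 were below the floor in liver. Mmp15 was at 209 in ALCAM+ cells and 36 in liver, 2.32-fold higher. Mmp14 was at 171 in ALCAM+ cells and 28 in liver, 2.27-fold higher, and 1 other probe set of Mmp14 above the floor was at 175 in ALCAM+ cells and 71 in liver, 1.18-fold higher. Among the proteoglycanases, Adamts9 was at 3879 in ALCAM+ cells and 456 in liver, 4.42-fold higher. Adamts20 was at 213 in ALCAM+ cells and 11 in liver, 4.54-fold higher. Adamts4 was at 211 in ALCAM+ cells and 15 in liver, 3.92-fold higher. In each of these 3, and in the next 2, ALCAM+ cells were above the floor. Adamts5 was at 287 in ALCAM+ cells and 38 in liver, a difference of 1.59 on the log2 scale. Adamts1 was at 546 in ALCAM+ cells and 98 in liver, 2.64-fold higher. The other ADAMTS genes past 2-fold were Adamts2, Adamts10, Adamts12 and Adamts18, and all 4 were below the floor in liver. Adamts10 was at 495 in ALCAM+ cells and 57 in liver, 3.75-fold higher. Adamts2 was at 318 in ALCAM+ cells and 33 in liver, 3.65-fold higher. Adamts18 was at 333 in ALCAM+ cells and 46 in liver, 3.01-fold higher. Of these 3, Adamts2 and Adamts18 were also past 2-fold in the ITGA8 split. Adamts12 was at 258 in ALCAM+ cells and 34 in liver, 2.93-fold higher. Adamtsl1 was at 168 in ALCAM+ cells and 10 in liver, 3.79-fold higher, the only gene of the ADAMTS-like family past 2-fold of 2 above the floor. With the mean of its probe sets the log2 difference of Adamtsl1 was 0.49, and with a pseudocount of 64 it was 0.87, both short of 2-fold.

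**Figure D3:**
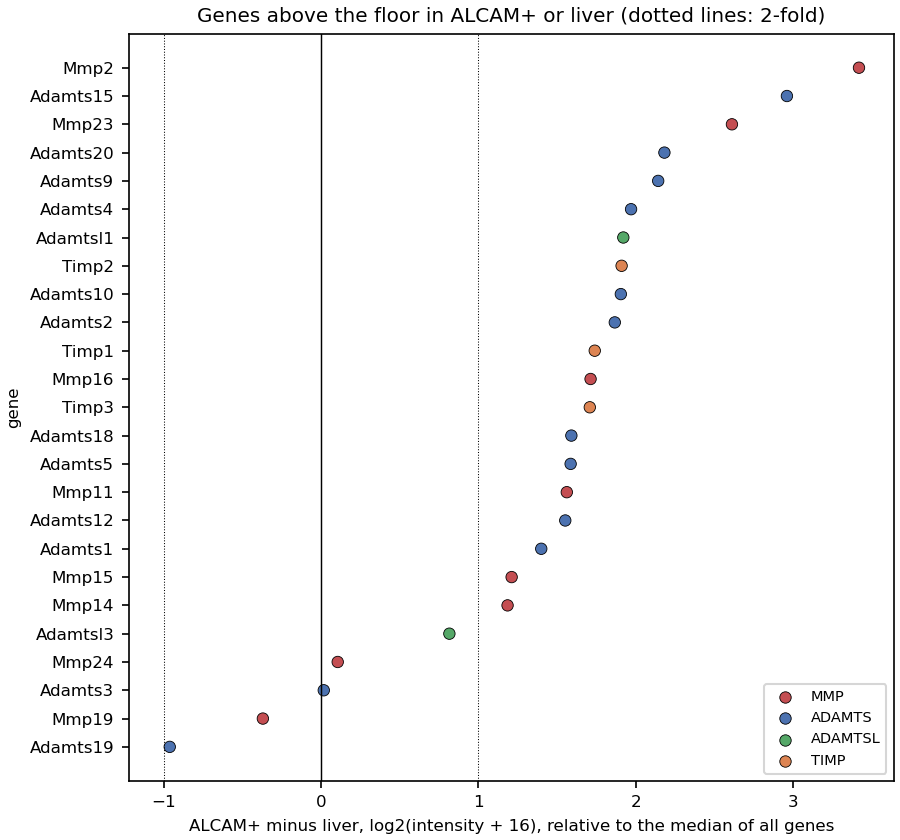
Difference of ALCAM+ minus liver in log2(intensity + 16), relative to the median of all genes, for the 25 protease and inhibitor genes above the floor, coloured by family, with dotted lines at 2-fold. Mmp2 is at the top at 3.42, 20 genes lie right of the upper 2-fold line, and Mmp19 at -0.37 and Adamts19 at -0.96 are the 2 genes left of 0.

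The gelatinases Mmp2 and Mmp9 degrade denatured collagen and type IV collagen. Mmp2 was at 2881 in PDPN+ and 1171 in PDPN- cells, and at 10802 in ITGA8+ and 5319 in ITGA8- cells, 2.44-fold higher in PDPN+ than in PDPN- cells and 2.03-fold higher in ITGA8+ than in ITGA8- cells. Both arrays of the ITGA8 sort were above both of the PDPN sort. Its second probe set, at 2451, 951, 7713 and 5035 in the same order, gave 2.55-fold and 1.53-fold, so the ITGA8 difference lies close to the 2-fold line. In ALCAM+ cells Mmp2 was at 2982, against 134 in liver, 10.7-fold relative to the shift. Mmp9, which neutrophils store in granules, was at 611 in PDPN+ and 30 in PDPN- cells, and at 66 in ITGA8+ and 47 in ITGA8- cells, and at 31 in ALCAM+ cells and 18 in liver. PDPN+ was its one array above the floor, and the difference from PDPN- was 13.6-fold, between 6.95-fold and 19.7-fold under the alternatives. The second probe set of Mmp9 was at 69 in PDPN+ and 8 in PDPN- cells, and was below the floor in every array. The 10 neutrophil and eosinophil markers had 9 above the floor in PDPN+ and 1 in PDPN- cells, 1 in ITGA8+ and 1 in ITGA8- cells, and 2 in ALCAM+ cells and 8 in liver, their summed levels being given above. Of the 9 above the floor in the PDPN split, 8 were 2-fold higher in PDPN+ cells, as Mmp9 was, and 0 lower. Over all genes 19.9% were higher and 7.93% lower. Mpo differed from Mmp9 in the ITGA8 sort, and Lcn2 in the PDPN split. Mpo, myeloperoxidase of neutrophil granules, was at 1553 in PDPN+ and 1 in PDPN- cells, and at 2532 in ITGA8+ and 1618 in ITGA8- cells. Lcn2, a protein of later granules, was at 663 in PDPN+ and 699 in PDPN- cells. S100a8 was at 8407 in PDPN+ and 16 in PDPN- cells, and at 17 in ITGA8+ and 25 in ITGA8- cells. In ALCAM+ cells S100a8 was at 162, against 1464 in liver, where Mmp9 was below the floor. Relative to the shift, 7 of the 8 markers above the floor were 2-fold higher in liver than in ALCAM+ cells, against 11.2% of all genes. The collagenase of neutrophil granules, Mmp8, is among the genes below the floor in all arrays. The part of neutrophils in the Mmp9 value was not tested.

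Of the 6 membrane-bound MMPs all were above the floor in a fraction. Mmp14, the membrane-type enzyme that activates pro-MMP2 with the help of TIMP2, was at 1440 in PDPN+ and 1059 in PDPN- cells, and at 1570 in ITGA8+ and 1585 in ITGA8- cells, the fractions lying within 1.35-fold in the PDPN split and 1.01-fold in the ITGA8 split. Its other probe sets were at 365 and 100 in ITGA8+, against 1012 and 330 in ITGA8- cells, 2.70-fold and 2.98-fold lower, so the probe sets of Mmp14 disagree in that split. Mmp16, another membrane-type enzyme, was at 1129 in PDPN+ and 112 in PDPN- cells, and at 1011 in ITGA8+ and 842 in ITGA8- cells. PDPN- was low and the other 3 were near each other, and the PDPN difference was 8.95-fold, with 4.27-fold and 7.67-fold in the 2 other probe sets above the floor. Mmp17, which is held by a lipid anchor, was at 259 in PDPN+ and 90 in PDPN- cells, and at 196 in ITGA8+ and 239 in ITGA8- cells, 2.59-fold higher in PDPN+ than in PDPN- cells. Mmp15 was at 203 in PDPN+ and 515 in PDPN- cells, and at 1073 in ITGA8+ and 502 in ITGA8- cells, 2.42-fold lower in PDPN+ and 2.10-fold higher in ITGA8+ cells. That probe set is of a type that can match other transcripts, and the second one was at 61, 73, 96 and 106 in the same order, below the floor in all. Mmp23, whose protein starts as a membrane protein with its own anchor and is released by cleavage, was at 2084 in PDPN+ and 941 in PDPN- cells, and at 6739 in ITGA8+ and 2081 in ITGA8- cells. ITGA8+ was the highest, 3.22-fold above ITGA8-, and PDPN+ was 2.19-fold above PDPN-. Its second probe set gave 1.76-fold in the ITGA8 split and 1.22-fold in the PDPN split, in the same directions. Mmp24, best known in the nervous system, was within 1.15-fold in the PDPN split and 1.10-fold in the ITGA8 split, at 624 to 767 in the 4 fractions.

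Among secreted MMPs outside the gelatinases, Mmp11 and Mmp19 were above the floor in all 4 fractions. Mmp11, stromelysin 3, an enzyme of stroma that is activated inside the cell by furin, was at 1100 in PDPN+ and 328 in PDPN- cells, and at 1356 in ITGA8+ and 1668 in ITGA8- cells, 3.24-fold higher in PDPN+ than in PDPN- cells. Mmp19, a basement membrane degrading enzyme, was instead higher in PDPN- cells, at 4830 in PDPN+ and 11256 in PDPN- cells, and at 1063 in ITGA8+ and 1800 in ITGA8- cells. It was 2.33-fold lower in PDPN+ than in PDPN- cells and 1.68-fold lower in ITGA8+ than in ITGA8- cells. Both PDPN-sort arrays were 2-fold above both ITGA8-sort arrays for Mmp19, against 2.94% of all genes. Its second probe set, at 112 in PDPN+ and 276 in PDPN- cells, was 2.28-fold lower in PDPN+ cells. In ALCAM+ cells Mmp19 was at 535, against 365 in liver, 1.45-fold higher as deposited and -0.37 on the log2 scale relative to the shift, so its direction there turned with the shift.

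The proteoglycanases of the ADAMTS family cleave versican and aggrecan. Of 7 such genes 6 were above the floor, and all 6 had 2-fold higher values in ALCAM+ cells than in liver, against 15.4% of all genes, with all but Adamts9 below the floor in liver. By the probe set that stands for each gene, none of the 6 passed 2-fold in the ITGA8 split. There 5.38% of all genes were higher and 6% lower in ITGA8+ cells, so this count is near those shares. Adamts15 was at 2442 in PDPN+ and 292 in PDPN- cells, and at 1559 in ITGA8+ and 1852 in ITGA8- cells, 7.98-fold higher in PDPN+ than in PDPN- cells, and at 857 in ALCAM+ cells, against 44 in liver. Adamts20, a gene required for pigment cell spread in the mouse, was at 461 in PDPN+ and 86 in PDPN- cells, and at 854 in ITGA8+ and 675 in ITGA8- cells, 4.68-fold higher in PDPN+ than in PDPN- cells. In both genes PDPN- was the low array, and both stayed within 2-fold in the ITGA8 split.

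Adamts4 was at 558 in PDPN+ and 177 in PDPN- cells, and at 1801 in ITGA8+ and 1645 in ITGA8- cells, 2.97-fold higher in PDPN+ than in PDPN- cells. Adamts9, which also takes part in forming cilia, was at 4341 in PDPN+ and 4124 in PDPN- cells, and at 15624 in ITGA8+ and 10462 in ITGA8- cells. It differed 1.05-fold in the PDPN split and 1.49-fold in the ITGA8 split, while both ITGA8-sort arrays exceeded both PDPN-sort arrays. Another probe set of Adamts9 was at 651 in PDPN+ against 243 in PDPN- cells, 2.58-fold higher. Adamts5 was at 111 in PDPN+ and 241 in PDPN- cells, and at 536 in ITGA8+ and 522 in ITGA8- cells, 2.02-fold lower in PDPN+ cells. Another probe set of Adamts5 was at 210 in PDPN+ against 142 in PDPN- cells, the other way, and one was at 611 in ITGA8+ against 183 in ITGA8- cells, 3.15-fold higher. Adamts1 was at 1123 in PDPN+ and 1012 in PDPN- cells, and at 2668 in ITGA8+ and 2013 in ITGA8- cells, within 1.11-fold and 1.32-fold.

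Adamts2 and Adamts3 remove the amino-terminal propeptide of fibrillar procollagens. Adamts2 was at 214 in PDPN+ and 405 in PDPN- cells, and at 2615 in ITGA8+ and 358 in ITGA8- cells. The ITGA8+ array alone was high, 7.03-fold above ITGA8-, the largest ITGA8 difference of the families. A second probe set of Adamts2 was at 1912 in ITGA8+ against 303 in ITGA8- cells, 6.04-fold higher, and the remaining one at 333 against 296, 1.12-fold. Adamts3 was at 723 in PDPN+ and 706 in PDPN- cells, and at 936 in ITGA8+ and 1358 in ITGA8- cells, within 2-fold in both splits, and at 349 in ALCAM+ cells against 177 in liver, 1.01-fold relative to the shift. The other probe set of Adamts3 was at 30 in PDPN+ and 159 in PDPN- cells, 3.80-fold lower, and at 160 in ITGA8+ and 85 in ITGA8- cells, 1.74-fold higher, so the probe sets of Adamts3 disagree in both splits.

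Of the 7 other ADAMTS genes, 5 were above the floor in the PDPN split, and 4 of these were 2-fold higher in PDPN+ cells and 0 lower, against 19.9% and 7.93% of all genes. Adamts19, an enzyme with few known substrates that is needed in heart valves, was at 1888 in PDPN+ and 51 in PDPN- cells, and at 1054 in ITGA8- cells, with ITGA8+ cells between the PDPN- and ITGA8- values. It was 28.4-fold higher in PDPN+ than in PDPN- cells, between 17.0-fold and 36.3-fold under the alternatives, and 2.58-fold lower in ITGA8+ than in ITGA8- cells. In ALCAM+ cells it was at 268, against 280 in liver, 1.95-fold lower relative to the shift and 1.04-fold lower as deposited. Adamts7, which with Adamts12 binds cartilage oligomeric matrix protein, was at 269 in PDPN+ and 16 in PDPN- cells, and at 210 in ITGA8+ and 257 in ITGA8- cells, 8.91-fold higher in PDPN+ than in PDPN- cells. Adamts12 was at 484 in PDPN+ and 711 in PDPN- cells, and at 1760 in ITGA8+ and 704 in ITGA8- cells, 2.47-fold higher in ITGA8+ than in ITGA8- cells. The pair thus passed 2-fold in different splits.

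Adamts6 and Adamts10 act on fibrillin microfibrils. Adamts6 was at 168 in PDPN+ and 53 in PDPN- cells, and at 137 in ITGA8+ and 470 in ITGA8- cells, 2.67-fold higher in PDPN+ and 3.18-fold lower in ITGA8+ cells. Its second probe set, at 118 in PDPN+ and 13 in PDPN- cells, and at 57 in ITGA8+ and 117 in ITGA8- cells, had the same order within each split. Adamts10 was at 2015 in PDPN+ and 979 in PDPN- cells, and at 2264 in ITGA8+ and 1980 in ITGA8- cells, 2.04-fold higher in PDPN+ cells, at the 2-fold line. Its other probe set was at 152 in PDPN+ and 163 in PDPN- cells, and the mean of the probe sets gave a difference of 0.47 on the log2 scale. Adamts18 was at 51 in PDPN+ and 15 in PDPN- cells, and at 638 in ITGA8+ and 289 in ITGA8- cells, 2.14-fold higher in ITGA8+ than in ITGA8- cells and below the floor in both arrays of the PDPN sort. Adamts16 was at 22 in PDPN+ and 18 in PDPN- cells, and at 128 in ITGA8+ and 60 in ITGA8- cells, above the floor in 1 array.

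The ADAMTS-like genes encode matrix proteins, several of which bind fibrillin. Adamtsl2, mutated in human geleophysic dysplasia, was at 74 in PDPN+ and 113 in PDPN- cells, and at 577 in ITGA8+ and 207 in ITGA8- cells, 2.66-fold higher in ITGA8+ cells. Adamtsl3 went the other way, at 82 in PDPN+ and 21 in PDPN- cells, and at 237 in ITGA8+ and 539 in ITGA8- cells, 2.19-fold lower in ITGA8+ cells. Adamtsl4 was at 42 in ITGA8+ against 151 in ITGA8- cells, 2.88-fold lower. Adamtsl1 was at 266 in PDPN+ and 81 in PDPN- cells, and at 492 in ITGA8+ and 510 in ITGA8- cells, 2.91-fold higher in PDPN+ cells, and Adamtsl5 did not exceed 120 in any fraction.

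By the probe set that stands for each gene, the 3 TIMP genes above the floor were all 2-fold higher in PDPN+ than in PDPN- cells, against 19.9% of all genes. All 3 were within 2-fold in the ITGA8 split, where 5.38% of all genes were higher and 6% lower in ITGA8+ cells. Timp3, whose product stays bound to the matrix and also blocks ADAMTS enzymes, was at 2125 in PDPN+ and 90 in PDPN- cells, and at 2268 in ITGA8+ and 3027 in ITGA8- cells. The PDPN- array alone was low, and the difference was 20.2-fold, between 14.2-fold and 23.4-fold under the alternatives. The other 3 probe sets of Timp3 were at 2478, 1339 and 184 in PDPN+, against 99, 71 and 1 in PDPN- cells, so all 4 showed it. Timp2, which binds pro-MMP2 on the cell surface, was at 3305 in PDPN+ and 809 in PDPN- cells, and at 2178 in ITGA8+ and 3126 in ITGA8- cells, 4.03-fold higher in PDPN+ cells and 1.43-fold lower in ITGA8+ cells. Of its other probe sets, one was at 1856 in ITGA8+ against 1048 in ITGA8- cells, 1.76-fold higher. One was at 564 against 1429 and one at 185 against 548, 2.49-fold and 2.81-fold lower. The direction of Timp2 in the ITGA8 split, and whether it passed 2-fold, thus depended on the probe set. Timp1, an inhibitor that is raised in liver injury, was at 1481 in PDPN+ and 572 in PDPN- cells, and at 825 in ITGA8+ and 1048 in ITGA8- cells, 2.55-fold higher in PDPN+ cells. In ALCAM+ cells the 3 were at 296, 1157 and 1950 from Timp1 to Timp3, against 34, 151 and 306 in liver, which is 3.34-fold, 3.76-fold and 3.27-fold relative to the shift.

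**Figure D4:**
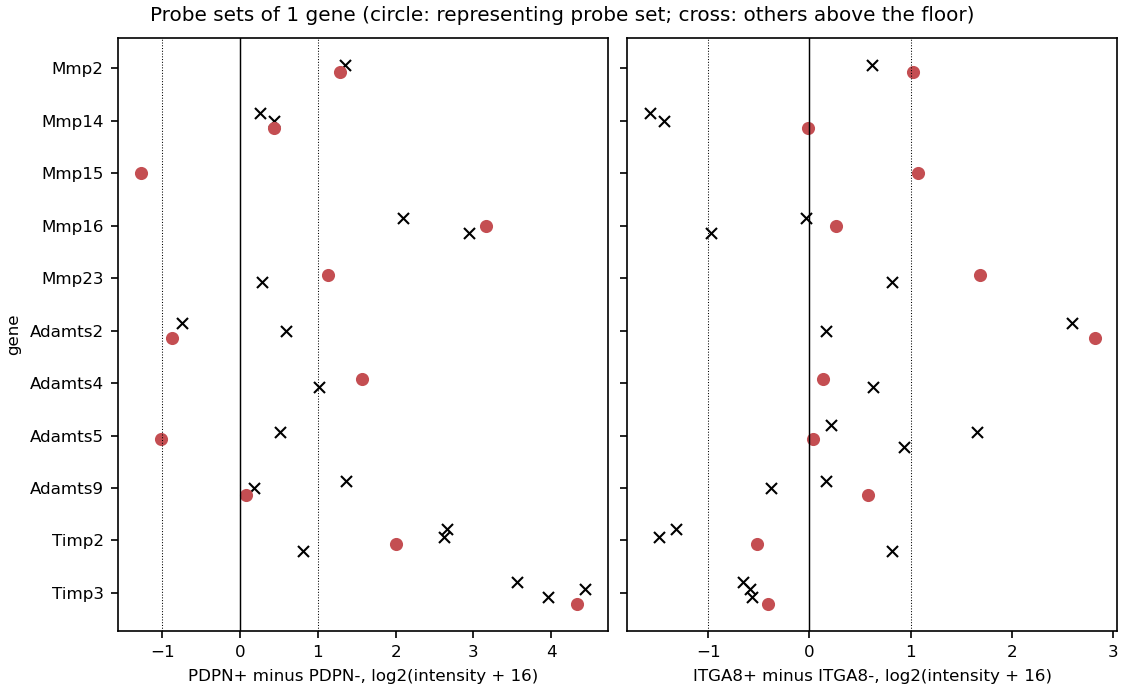
Differences of PDPN+ minus PDPN- (left) and ITGA8+ minus ITGA8- (right), in log2(intensity + 16), for every probe set above the floor of 11 genes, with a red circle for the one that represents the gene and crosses for the others. The 4 probe sets of Timp3 lie together at 3.56 to 4.44 on the left, and those of Timp2 lie between -1.49 and 0.82 on the right.

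Agreement between the probe sets of a gene differed between the splits, for these genes and over all genes. Probe sets of a gene share the same arrays, so they are not replicates, and their agreement does not measure spread between arrays. Of 13 other probe sets above the floor of genes higher in PDPN+ cells, 10 were also 2-fold higher and 12 went the same way; over all genes higher in PDPN+ cells, 74.1% of other probe sets were 2-fold higher. Of 4 other probe sets of genes higher in ITGA8+ cells, 1 was also 2-fold higher and 4 went the same way, against 20% 2-fold higher over all such genes. Of 2 other probe sets of genes lower in PDPN+ cells, 1 was also 2-fold lower and the other went the opposite way, against 55.1% 2-fold lower over all such genes. The 1 other probe set of a gene lower in ITGA8+ cells went the same way and was not 2-fold lower, against 30.6%. Of 14 other probe sets of genes higher in ALCAM+ cells, 8 were also 2-fold higher, against 41.9%.

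Genes that work with these enzymes were taken from lists chosen with earlier results of these data known. Their counts stand beside 19.9% of all genes higher and 7.93% lower in PDPN+ cells, 5.38% higher and 6% lower in ITGA8+ cells, and 15.4% higher and 11.2% lower in ALCAM+ cells than in liver. Of 5 genes that restrain or induce MMPs, 2 were higher in PDPN+ cells and 0 lower, and 4 were higher and 1 lower in ALCAM+ cells than in liver. Reck, a membrane-anchored MMP inhibitor, was at 2879 in PDPN+ and 1664 in PDPN- cells, and at 3182 in ITGA8+ and 3026 in ITGA8- cells, within 2-fold in both splits, and at 783 in ALCAM+ cells against 44 in liver. Thbs1, thrombospondin 1, which platelets also carry, was at 3530 in PDPN+ and 145 in PDPN- cells, and at 1870 in ITGA8+ and 955 in ITGA8- cells. Bsg, basigin, an inducer of MMPs, was at 2707 in ITGA8+ against 7538 in ITGA8- cells, 2.77-fold lower.

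Of the 10 procollagen and matrix processing genes, 3 of 7 above the floor were 2-fold higher in ITGA8+ cells and 0 lower, and 3 of 9 were higher and 1 lower in PDPN+ cells. Pcolce, an enhancer of the procollagen C-proteinase, was at 5566 in PDPN+ and 3840 in PDPN- cells, and at 13771 in ITGA8+ and 6625 in ITGA8- cells. ITGA8+ was its highest fraction, as it was for Adamts2 and for 33.6% of all genes. Bmp1, the C-proteinase itself, was within 2-fold in both splits, at 1722 in ITGA8+ against 1266 in ITGA8- cells. Furin, the convertase that activates Mmp11 and the membrane-type enzymes, was also within 2-fold, at 8108 in PDPN+ against 9759 in PDPN- cells. Of 8 genes of the plasminogen system, which activates several MMPs, 3 of 6 above the floor were higher and 1 lower in PDPN+ cells, and 1 of 5 was higher in ITGA8+ cells. Plat, tissue plasminogen activator, was at 1718 in PDPN+ against 219 in PDPN- cells, and Plg, plasminogen, which hepatocytes make, at 1939 against 6675.

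Of 8 ADAM protease genes, 2 were higher in PDPN+ cells and 0 lower, and 1 was lower in ITGA8+ cells. The gene in both counts was Adam33, at 519 in PDPN+ and 11 in PDPN- cells, and at 113 in ITGA8+ and 243 in ITGA8- cells. The ubiquitous sheddase gene Adam10 was at 9490 to 10629 in the fractions. Of 7 proteoglycan substrate genes, 1 of 5 above the floor was higher and 1 lower in PDPN+ cells, and 1 of 4 was higher in ITGA8+ cells. Vcan, versican, was at 2794 in PDPN+ and 1095 in PDPN- cells, 2.53-fold higher in PDPN+ cells, and at 8419 in ITGA8+ and 8432 in ITGA8- cells. Like Adamts9 and Adamts4 it was higher in both ITGA8-sort arrays than in both PDPN-sort arrays, as were 32.2% of all genes. Among the other substrate genes above the floor, Bgn and Hspg2 had this order, Dcn had the reverse and Bcan had neither. Bgn, biglycan, was at 9980 in ITGA8+ against 3973 in ITGA8- cells, and Acan, aggrecan, did not exceed 48 in any array. Of 6 cathepsin and heparanase genes, 2 were higher in PDPN+ cells and 0 lower, and 1 was higher and 1 lower in ITGA8+ cells; Ctss, the macrophage cathepsin S, was at 6370 in PDPN+ against 151 in PDPN- cells.

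Median log2 differences of these 6 lists in PDPN+ minus PDPN- were 0.99 for the genes that restrain or induce MMPs, 0.11 for procollagen processing, 0.76 for the plasminogen system, 0.24 for the ADAM genes, -0.26 for the proteoglycans and 0.54 for the cathepsins and heparanase, against 0.04 over all genes. In ITGA8+ minus ITGA8- they were 0.07, 0.44, 0.19, -0.16, -0.18 and 0.27 in the same order, against 0.00. In ALCAM+ minus liver, relative to the shift, they were 1.27, 1.21, 1.21, 0.79, 1.37 and -0.12.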

How the data were processed

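RNA of 6 samples was measured on Affymetrix Mouse Genome 430 2.0 arrays, starting from 20 ng each, as the labels' protocols state. The authors deposited intensity values as linear whole numbers. RMA and Partek were used, per the submitters' processing notes, with versions not given in the sources used here. Intensities lie on 2 scales, with medians of 123 to 200 in the 4 fraction arrays and 42 to 66 in ALCAM+ and liver, and the number of arrays limits precision. Means of the 4 fraction arrays, taken without their extreme values, were 995.8 to 996.6 while their medians differ. The name RMA alone does not tell how each array was scaled.

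Of 45101 probe sets, 38011 named 1 gene and had values in the 4 fraction arrays. Where a gene had several probe sets, the one whose mean across the 4 fractions was highest stood for it. Values were transformed to log2(intensity + 16); the floor was 109.0 and calls were made at 2-fold. ALCAM+ minus liver was taken relative to the median of all genes above the floor (0.90 log2). The labels name no genome build; symbols of all 44 members matched a RefSeq table of GRCm38.p6, the source of coordinates and promoter windows. Steps ran in Python 3.11.15 with pandas 2.3.3 and were tested on simulated data.

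Members, marker and pathway lists were chosen with earlier results of these data known. Members above the floor in any array could be named, those past 2-fold with all values of the comparison. Role groups, the between-sort counts, the motifs' printed windows and the array swap were chosen after seeing the data. Pseudocount, probe set, floor, fold and normalisation were varied. Members with close relatives, such as Mmp1a and Mmp1b, can share probes.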

Additional observations from a re-analysis of the deposited data

How the results depend on the processing

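No paired analysis was possible because each group has 1 array. No array could be left out for the same reason. Of single-gene calls, 14 of 21 held under every alternative of pseudocount, probe set, normalisation and shift in the PDPN split, 6 of 11 in the ITGA8 split and 11 of 20 for ALCAM+ against liver. Of 455 alternative single-gene differences, 10 passed 2-fold where the main one did not. Among them was Mmp14, at -1.01 in ITGA8+ minus ITGA8- with the mean of all probe sets. At 4-fold in place of 2-fold, PDPN+ cells had 8 higher genes, PDPN- cells 0, ITGA8+ cells 1, ITGA8- cells 0 and ALCAM+ cells 5; 0 passed it in both splits in any combination. With the mean of all probe sets, 1 was higher in PDPN-, 3 in ITGA8+ and 12 in ALCAM+, with 0 in both PDPN+ and ITGA8+ and 0 in both PDPN- and ITGA8+. Higher in liver were 1 with a pseudocount of 1, 2 with quantile normalisation within each set, 3 with no floor and 2 with the floor at the median of each set, Mmp3 and Mmp20, against 0. In both PDPN+ and ITGA8+ there was 1 with quantile normalisation; in both PDPN+ and ITGA8- there was 1 with a pseudocount of 64, with quantile normalisation and with the floor at the median of each set; in both PDPN- and ITGA8+ there were 2 with quantile normalisation and with no floor, and 0 with probe sets not ending in _s_at or _x_at. With ITGA8+ in place of PDPN-, chosen after seeing the data, 3 were higher in PDPN+ and 13 lower. Mmp15 changed sign with the probe set not ending in _x_at, to -0.12 in ITGA8+ minus ITGA8- and -0.33 in ALCAM+ minus liver. The probe set chosen is the cause there by construction, and for the others the cause was not tested. The other counts stayed within 1.5 times.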
